A study of Mus musculus with 24 samples.

Results

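The comparison described here is the second day of embryoid body growth in the f/f line: the 2 libraries of f/f embryoid bodies at day 2 were set against the 2 at day 1. They were chosen by their titles and make up 4 of the 24 libraries of the series, and every one of the 23284 genes of the count table entered. The f/f cells are C57BL/6 mouse embryonic stem cells of a line in which Eed can be deleted with 4-hydroxytamoxifen. Here they had not received it (treatment label Tamoxifen-, genotype label wild type), so Eed had not been deleted at either day. EED belongs to the core of PRC2, which silences genes through methylation of histone H3. Embryonic stem cells were kept in serum with LIF on feeder layers of mouse embryonic fibroblasts. The other lines are KO (Eed deleted with 800 nM 4-hydroxytamoxifen), KO with wild-type EED put back (KO+WT) and KO+N-KR, in which an EED form called N-KR was put back. All were sampled in the state labelled 3i and at both days, and what N-KR and 3i stand for is not spelled out in the labels. The series title ties SKP1A, which serves SCF-type ubiquitin ligases, to the degradation of PRC2, and the day series follows the cells as they leave the stem cell state.

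Embryoid bodies are clumps of embryonic stem cells grown without the conditions that hold them in self-renewal. Within them, cells pass from naive pluripotency, the state of the inner cell mass, through a formative or primed state like that of the epiblast after implantation, before germ layers appear. FGF-ERK, WNT, BMP, Nodal and Notch signals act during these steps, and each pathway switches on its own inhibitors, so that the RNA of feedback genes is often read as a trace of the signal.

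The day 1 libraries held 11356458 and 9372421 counts and the day 2 libraries 12562736 and 9592453, against 7553683 to 14426034 over all 24. The 2 libraries of a day differed by little more than sampling noise: the variance of their count differences was 1.10 times the binomial at day 1 and 1.18 times at day 2, while day 1 against day 2 gave 26.8 and 22.1 times in the first and second libraries. The labels do not say that the 2 libraries came from separate cultures. In the column headers all first libraries of the series share 1 code prefix and all second libraries another. What these codes stand for is not given. The 2 libraries were summed and counted as 1 sample, so f/f has 1 sample a day, no replicate check and no p-value of its own. Differences in f/f are therefore called by size: at least 2-fold, with at least 5 CPM (the reads of a gene as a share of its library's total, after TMM scaling) at the higher day. A second reading asks whether a change recurred. In a fit of the 4 lines together (12 summed samples, edgeR's quasi-likelihood test with Benjamini-Hochberg adjustment), "rose" and "fell" are used of genes with an adjusted p under 0.05 for day 2 against day 1 over the lines, f/f included. That p measures how evenly a change recurred over 4 single lines, not the spread between cultures of f/f. Reads of Eed were present in every line, including KO at day 1 (175 CPM), so these gene totals do not check its deletion.

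Over 1 day of growth, the Nodal inhibitor Lefty1 and ligand Gdf1, Notch3 and the AP-1 genes Fos and Jun were higher in f/f, while the naive factors Nr0b1 and Klf5, the FGF-ERK targets Myc, Etv4 and Spry4, the D-type cyclins Ccnd2 and Ccnd3 and the PRC2 partner Jarid2 were lower. Of the 15220 genes tested, 420 were at least 2-fold higher at day 2 (2.76%) and 296 at least 2-fold lower (1.94%), and 66 and 47 of them differed by at least 4-fold. In each of these 716 genes the first and the second library pair gave the same direction. The genes were called from the sums of these same libraries, which differ little within a day, so this is no separate check. In a fit of all 24 libraries, whose p-values measure only the spread between the 2 libraries of a group, 4098 of 14619 genes were higher in f/f at day 2 (28.0%) and 3953 lower (27.0%). Over the 4 lines, 4288 genes rose (28.2%) and 4133 fell (27.2%), including 418 of the 420 and 291 of the 296. The 4-line fit includes f/f itself. In a fit of the other 3 lines alone, 416 of the 420 rose, beside 25.5% of all genes tested there, and 285 of the 296 fell, beside 23.2%. In neither fit did any of the 716 pass the threshold in the opposite direction. In bulk RNA, fewer cells of a type and less RNA per cell cannot be told apart. The counts of list members that rose or fell, given below, stand beside shares of 28.2% and 27.2% over all genes tested. No list was tested against these shares.

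**Figure D1:**
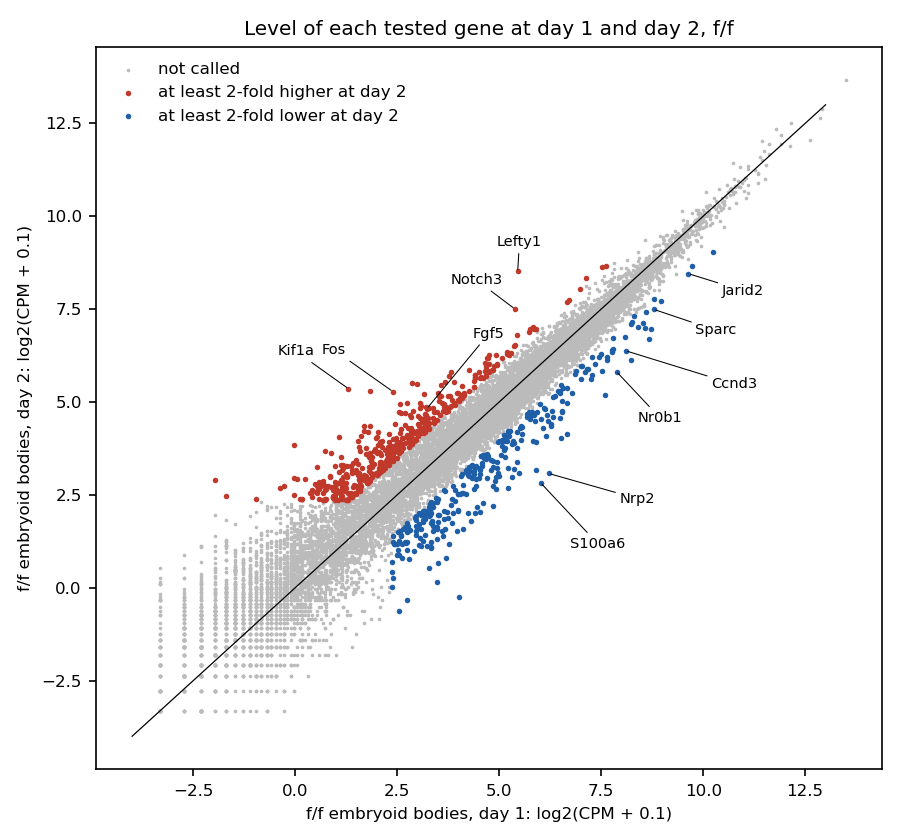
Level of each of the 15220 tested genes in f/f embryoid bodies at day 1 (horizontal) and day 2 (vertical), as log2(CPM + 0.1) of the summed libraries of a day. Red points are the 420 genes at least 2-fold higher at day 2, blue points the 296 at least 2-fold lower, and the line marks equal levels; most genes lie close to it, and the labelled genes are described in the text.

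Most genes of the Nodal pathway were higher at day 2. Nodal is a TGF-beta ligand of the early embryo; LEFTY1 and LEFTY2 are secreted inhibitors of it that its own signal switches on. The day 1 libraries gave Lefty1 42.8 and 43.6 CPM, and the day 2 libraries 363 and 373 CPM. Both day 2 libraries were far above both day 1 libraries, an 8.35-fold difference (log2 3.06), and the 4-line change was 2.79 ± 0.23 on the log2 scale (SE; adjusted p = 6.34e-07). Lefty2 went from 89.6 and 91.8 to 167 and 160.2 CPM, 1.78-fold, and also rose over the lines (adjusted p = 2.45e-05). The 2 genes are close copies, and how reads that fit both were counted is not given in the sources used here.

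The ligand Nodal had 68.3 and 66.1 CPM at day 1 and 77.6 and 82.4 at day 2 (log2 0.22), and its change over the lines did not pass the test (adjusted p = 0.201), though it did, upward, when libraries were scaled by their totals (adjusted p = 0.0403). Gdf1, a partner ligand of Nodal whose transcript overlaps that of Cers1, went from 6.58 and 6.76 to 16.6 and 16.3 CPM and rose (adjusted p = 2.10e-05). Tdgf1, the Nodal co-receptor also called Cripto, fell from 1257 and 1269.6 to 1007 and 1004 CPM, and the related ligand Gdf3 fell from 84.9 and 90.2 to 65.2 and 63.3. Among the signal carriers, Smad3 rose from 17.2 and 16.7 to 29.6 and 27.5 CPM, whereas Smad2 had 85.6 and 83.9, then 68.9 and 74.2 and did not pass (adjusted p = 0.0671). Pcsk6, a protease that matures Nodal and LEFTY precursors, was lower by 2.31-fold, from 43.9 and 48.8 to 20.4 and 20.0 CPM. In all, 10 of the 17 measured pathway genes rose and 4 fell, 3 were higher by size in f/f, Lefty1 and Gdf1 among them, and 1 was lower (Pcsk6). Their median log2 ratio in f/f was 0.23, against 0.00 for all genes tested.

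Notch receptors and ligands were also mostly higher. Notch signalling passes between touching cells, when a DLL or JAG ligand on one frees the receptor's inner part in the other to act with RBPJ on DNA. For Notch3, the values were 42.1 and 39.9 CPM at day 1 and 182 and 183 CPM at day 2. The difference was 4.36-fold, and this receptor rose over the lines by 1.72 ± 0.09 on the log2 scale (SE; adjusted p = 1.56e-08). Notch1 (37.2 and 36.7 to 50.7 and 51.4 CPM) and Notch2 (33.5 and 39.5 to 49.9 and 55.6 CPM) rose by less than 2-fold. Of the ligands, Jag2 was 2.13-fold higher (13.7 and 15.4 to 33.1 and 29.6 CPM) and Dll1 went from 16.2 and 14.8 to 25.2 and 28.1 CPM, while Jag1 did not pass (11.8 and 13.5, then 13.6 and 12.1 CPM, adjusted p = 0.775). Dtx1, a Deltex-family regulator of the pathway, rose from 12.6 and 15.2 to 29.4 and 30.8 CPM; its 2.13-fold difference drops below 2-fold without the first day 1 library (log2 0.957). The target repressor Hes1 had 20.2 and 19.5, then 27.4 and 22.6 CPM and rose over the lines (adjusted p = 0.0063). Rbpj, the DNA-binding partner, moved the other way, from 621 and 629.8 to 413 and 403 CPM, and was the only 1 of the 16 measured genes to fall, against 11 that rose. The median log2 ratio of the 16 was 0.47.

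Naive pluripotency genes were mostly lower at day 2. Nr0b1 stood at 234 and 229.7 CPM at day 1 and at 56.5 and 56.5 CPM at day 2. Nr0b1 (Dax1), a nuclear receptor that binds OCT4, thus lay 4.17-fold lower, close to its level in the 3i libraries (49.8 and 49.2 CPM), and it fell over the lines by 2.03 ± 0.10 on the log2 scale (SE; adjusted p = 1.83e-08). Klf5 went from 73.5 and 71.9 to 21.4 and 23.9 CPM and Tfcp2l1 from 142 and 146 to 57.2 and 61.2 CPM; both encode factors of the naive network and both fell (adjusted p = 9.47e-06 and 2.31e-04). The naive factor Klf4 stood at 390.5 and 372 CPM in 3i, at 33.0 and 29.96 CPM one day into embryoid body growth and at 15.7 and 15.0 CPM the next day. Most of its difference from 3i was thus already present at day 1. Its 2.09-fold difference between the days drops below 2-fold without the first day 1 library (log2 -0.978), and just below with library totals (log2 -0.997).

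Some naive genes barely differed between the days. Nanog had 149 and 149 CPM at day 1 and 138 and 134 at day 2 (adjusted p = 0.88), after 403 and 385 in 3i. Esrrb, an orphan nuclear receptor of the naive network, fell from 311 and 314 to 254 and 239.5 CPM, 1.28-fold. Prdm14 (13.4 and 14.2 to 6.85 and 7.58 CPM) and Tcl1 (22.4 and 25.9 to 13.9 and 12.0 CPM) were lower in f/f but did not pass over the 4 lines (adjusted p = 0.104 and 0.0675). Dppa3 (Stella), an oocyte and germ cell factor that marks naive cells, went the other way, from 5.29 and 5.63 to 10.4 and 10.7 CPM, and rose (adjusted p = 5.50e-06). Of the 15 naive genes measured, 10 fell and 1 rose, and the median log2 ratio in f/f was -0.51.

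General pluripotency genes were lower by smaller amounts. Pou5f1 was counted at 1444 and 1431 CPM in the day 1 libraries and at 854 and 829 CPM in the day 2 libraries. Pou5f1 (Oct4), required throughout pluripotency, was 1.74-fold lower than at day 1 and close to its 3i level (943 and 949.6 CPM); over the lines it fell by 0.71 ± 0.04 on the log2 scale (SE; adjusted p = 4.66e-08). Sox2, its binding partner, fell from 617 and 619 to 519.8 and 509 CPM. The RNA-binding genes Lin28a (341 and 351 to 429 and 419 CPM) and Lin28b (40.2 and 39.1 to 58.7 and 59.5 CPM) rose, and the other 10 of the 12 measured genes fell, with a median of -0.44. L1td1, an RNA-binding protein of stem cells, fell from 974 and 983 to 686 and 703 CPM, and Dppa2, a chromatin protein of early embryos, from 175 and 174 to 102 and 105 CPM.

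**Figure D2:**
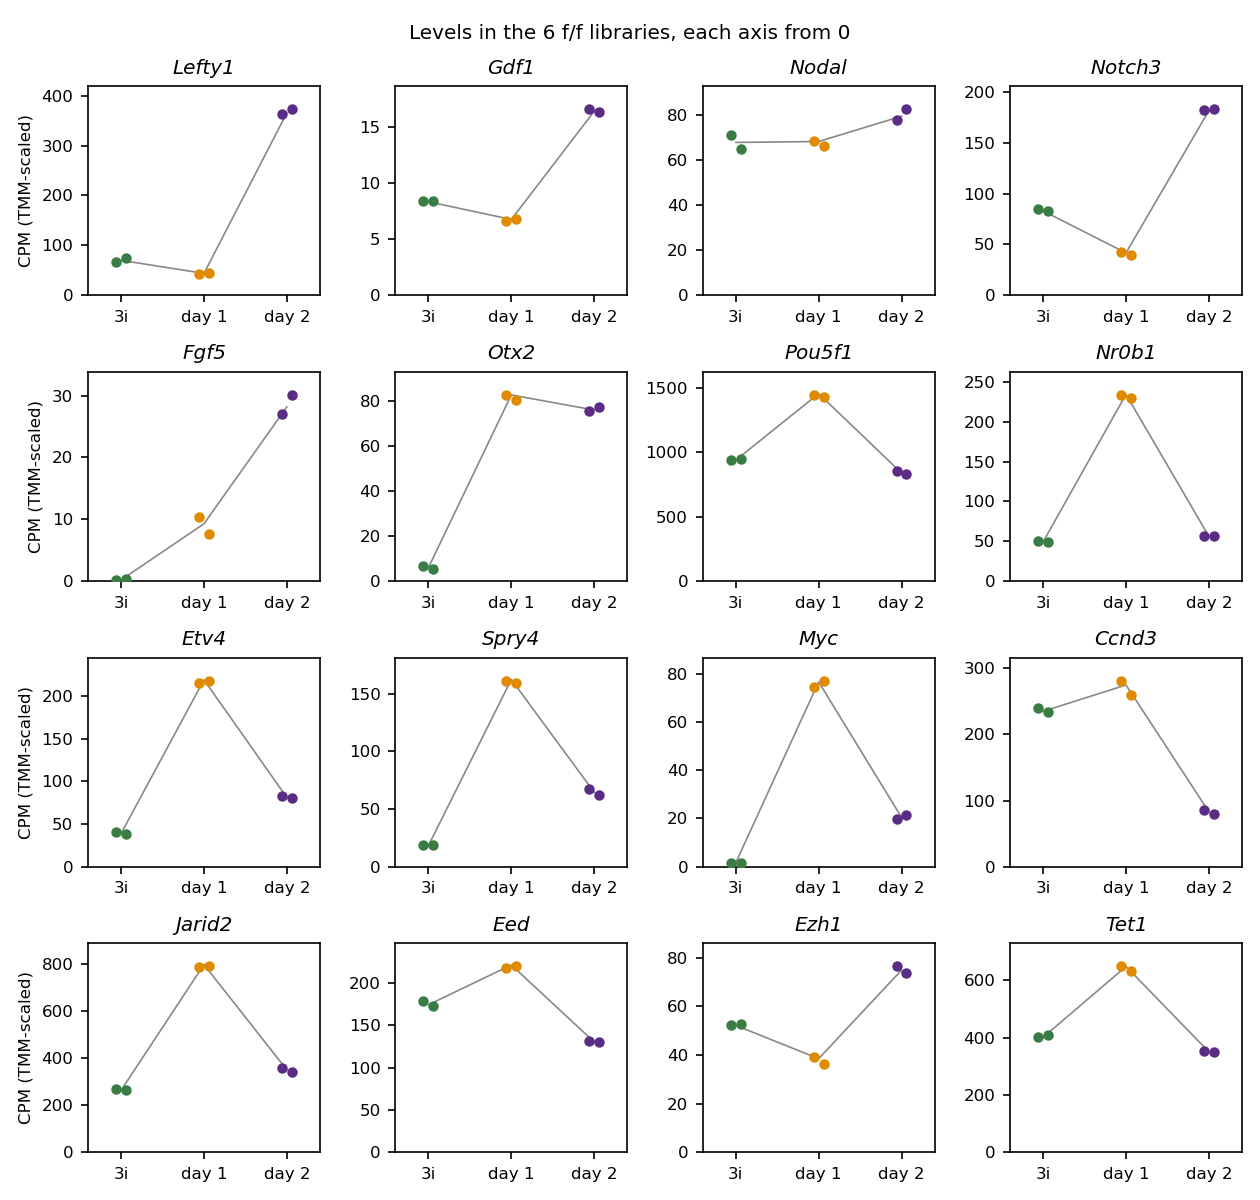
CPM (vertical, each axis from 0) of 16 genes in the 6 f/f libraries, 2 each in 3i, at day 1 and at day 2; points are single libraries and lines join the summed samples. Lefty1, Gdf1 and Notch3 stand highest at day 2, Fgf5 climbs at each step, and Nr0b1, Etv4, Spry4, Myc, Jarid2 and Tet1 stand highest at day 1.

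Genes of the formative and primed epiblast divided. Fgf5, the standard mark of the primed epiblast, had 10.4 and 7.66 CPM at day 1 and then 27.0 and 30.1 CPM, against 0.0724 and 0.270 CPM in 3i. It was 3.02-fold higher at day 2 and rose over the lines by 1.49 ± 0.14 on the log2 scale (SE; adjusted p = 1.84e-06). Wnt8a, a WNT ligand of the posterior epiblast, went from 0.835 and 1.13 to 4.81 and 5.56 CPM, from 9 and 10 reads to 59 and 52. In contrast, Otx2 (82.8 and 80.8, then 75.8 and 77.6 CPM) and Pou3f1 (87.7 and 89.3, then 85.6 and 84.2 CPM), 2 factors of the exit from naive pluripotency, had much the same level at both days and did not pass the test (adjusted p = 0.498 and 0.662). In 3i Otx2 had 6.66 and 5.13 CPM and Pou3f1 5.58 and 4.86 CPM. Tcf15, a bHLH factor of primed cells, was 2.93-fold lower, from 78.5 and 77.0 to 26.7 and 27.2 CPM, and Foxd3, a forkhead factor of the epiblast, went from 55.8 and 48.1 to 26.7 and 22.6 CPM. Of the 20 genes measured, 8 rose and 8 fell (median 0.11), so the list had no common direction.

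Targets of FGF-ERK signalling were lower at day 2. FGF4 made by the cells drives ERK, which switches on ETV factors and the SPRY and DUSP inhibitors of the same pathway. The day 1 libraries gave Myc 74.7 and 77.2 CPM, and the day 2 libraries 19.8 and 21.6 CPM. Myc, a growth-promoting factor at only 1.67 and 1.62 CPM in the 3i libraries, was 3.73-fold lower at day 2 and fell over the lines by 1.84 ± 0.15 on the log2 scale (SE; adjusted p = 6.83e-07). Etv4 fell from 215 and 218 to 82.6 and 80.2 CPM (adjusted p = 1.83e-08), Spry4 from 161 and 159 to 66.9 and 62.2 (adjusted p = 2.37e-08) and Dusp6, an ERK phosphatase, from 138 and 137 to 86.9 and 88.2 (adjusted p = 0.004). Each of these still exceeded its 3i level. Spry1 was the exception, rising from 19.6 and 24.3 to 40.04 and 38.4 CPM. Among the 15 genes measured 10 fell and 1 rose. The median log2 ratio was -0.59 with both library pairs summed and -0.31 in the first pair alone. Fgf4 itself fell little, from 306 and 317 to 291 and 291 CPM.

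Immediate early genes, which answer growth factors within minutes, included 3 that were higher by size and none that were lower. For Fos, the values were 5.47 and 4.62 CPM at day 1 and 37.3 and 41.2 CPM at day 2. The difference of this AP-1 subunit was 7.42-fold, and Fos rose over the lines by 2.88 ± 0.28 on the log2 scale (SE; adjusted p = 2.60e-06). Fosb had 1 and 2 reads in the day 1 libraries and 99 and 61 in the day 2 libraries, too few at day 1 for a fold to be given. Jun rose from 8.53 and 7.10 to 20.6 and 21.7 CPM, whereas Junb had 12.4 and 12.5, then 11.5 and 9.08 CPM (adjusted p = 0.806) and Nr4a1, an orphan nuclear receptor, fell from 42.3 and 40.7 to 21.4 and 21.5 CPM. Fos, Fosb and Jun stood higher in the 3i libraries than at day 2 (193 and 197 CPM for Fos). Over the 15 genes, 6 rose and 2 fell.

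WNT feedback genes split within the pathway. Notum, a secreted lipase that inactivates WNT ligands, went from 20.3 and 21.6 to 3.67 and 4.38 CPM, 5.25-fold lower, and fell over the lines (adjusted p = 1.64e-07). Axin2, a scaffold of the beta-catenin destruction complex and a general readout of WNT, fell from 19.2 and 21.2 to 11.3 and 10.6 CPM. Against these, the inhibitors Nkd1 (2.23 and 1.80 to 5.79 and 4.49 CPM) and Nkd2 (1.76 and 2.03 to 7.18 and 6.52 CPM) and the factor Tcf7 (62.2 and 58.0 to 117 and 119.7 CPM) rose. Of 15 genes, 5 rose and 6 fell. Their median was 0.13 and turned to -0.07 in the first library pair alone, so the list had no direction. In the BMP pathway Bmp4 and Bmp7, both ligands, moved in opposite directions. Bmp4 fell from 16.1 and 18.1 to 2.45 and 3.53 CPM (adjusted p = 1.31e-06) and Bmp7 rose from 2.04 and 2.25 to 10.4 and 8.87 CPM (adjusted p = 2.57e-07). Id1, a direct target of BMP signals, fell from 37.7 and 36.9 to 17.6 and 16.3 CPM, while Id3 had 20.1 and 19.5, then 16.8 and 18.3 CPM and did not pass (adjusted p = 0.862). Of the 16 BMP genes, 12 of them at 5 CPM or more, 3 rose and 3 fell. Over all genes tested 28.2% rose and 27.2% fell, and a list this small was not tested against that share.

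Among the 134 higher genes that had at least 20 CPM at day 2 and rose over the lines, Kif1a and Pdzk1 had the highest ratios. Kif1a, a kinesin motor of axonal transport, went from 2.97 and 1.58 to 40.4 and 42.1 CPM, 16.7-fold, and rose over the lines by 4.00 ± 0.13 on the log2 scale (SE; adjusted p = 8.57e-10). Pdzk1, a scaffold of membrane transporters, went from 3.43 and 3.38 to 39.6 and 38.9 CPM, 11.1-fold (4-line adjusted p = 6.87e-09). In both genes the day 1 and day 2 libraries were far apart. Prom1, the membrane protein CD133, reached 21.3 and 19.6 CPM from 3.43 and 2.59. Cxcl12, a chemokine, reached 31.2 and 29.9 CPM from 5.10 and 6.53, and Arrb1, a beta-arrestin, 45.9 and 44.4 CPM from 7.60 and 7.88. Greb1l, Cthrc1, Rasd2, Stk39 and Got1l1 were also among the 15 highest of these 134, with log2 ratios of 2.01 to 2.53, as were Lefty1, Fos and Notch3.

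Among the 163 lower genes that had at least 20 CPM at day 1 and fell over the lines, S100a6 and Nrp2 had the lowest ratios. S100a6, a calcium-binding protein, fell from 64.9 and 63.0 to 6.61 and 7.48 CPM, 9.22-fold, and over the lines by 2.93 ± 0.17 on the log2 scale (SE; adjusted p = 3.36e-08). Nrp2, a co-receptor for semaphorins and VEGF, fell from 74.6 and 71.6 to 7.58 and 9.40 CPM, 8.81-fold (4-line adjusted p = 1.11e-08). Gbx2, a homeobox factor with a role in self-renewal, fell from 58.6 and 59.1 to 8.16 and 9.94 CPM. In the 3i libraries S100a6 had 23.1 and 25.2 CPM, Nrp2 21.4 and 17.1 CPM and Gbx2 6.45 and 7.92 CPM, all below day 1. Ahnak, a large scaffold protein, stood at 102 and 96.9 CPM at day 1 and then 17.0 and 18.4 CPM, against 219 and 205 CPM in 3i. The growth factor gene Pdgfc (42.9 and 45.5 to 8.48 and 8.44 CPM) and Ngfr, the low-affinity neurotrophin receptor (21.2 and 22.2 to 4.40 and 4.38 CPM), were also among the 15 lowest of these 163. The others were Pla2g7, Ttn, H2-M5, Exoc3l, Phlda1, Nlrc4, Notum and the unnamed transcripts 8430410A17Rik and 6330407J23Rik.

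**Figure D3:**
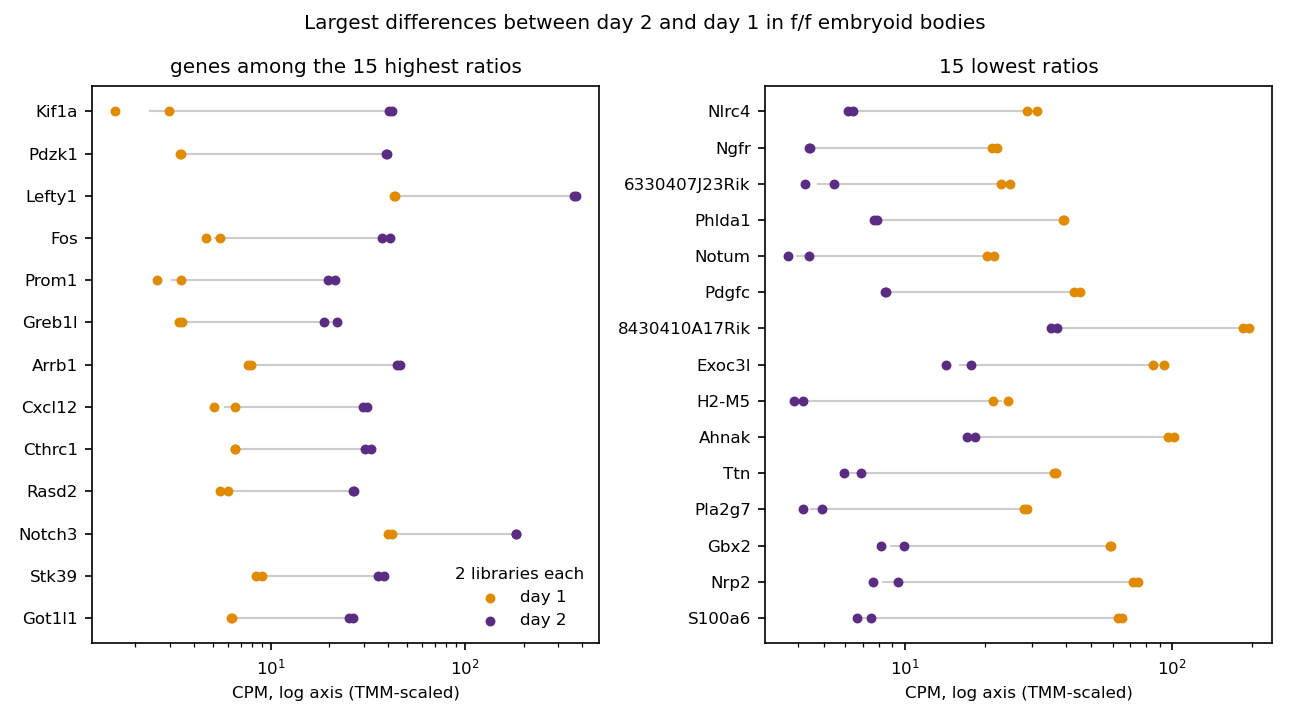
CPM on a log axis of 13 genes from the 15 with the highest (left) and of the 15 with the lowest (right) day 2 to day 1 ratio in f/f among genes of at least 20 CPM at the higher day that passed the 4-line fit; orange points are the 2 day 1 libraries, purple points the 2 day 2 libraries. In each gene the libraries of a day lie close together and the days do not overlap. The same direction in both library pairs was part of how these genes were chosen, so this separation is no independent check.

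Subunits of PRC2 moved unequally. The enzyme gene Ezh2 (243 and 243 CPM at day 1, 238 and 238 at day 2) did not pass the test (adjusted p = 0.0822). Suz12, a core subunit, was equal in f/f (329 and 327, then 329 and 339 CPM) and fell slightly over the lines (adjusted p = 0.0285), a call that is lost when libraries are scaled by their totals (adjusted p = 0.126). Eed stood at 218 and 219.5 CPM at day 1 and at 132 and 130.3 CPM at day 2. The third core subunit was thus 1.70-fold lower in f/f and fell over the lines by 0.78 ± 0.09 on the log2 scale (SE; adjusted p = 8.46e-06). However, Eed was deleted in KO, and an EED form was put back in KO+WT and KO+N-KR. Gene totals do not tell reads of the intact gene from those of a deleted or put-back one. For Eed this p therefore does not show that the f/f change recurred. Ezh1, the second methyltransferase, went the other way, from 39.3 and 36.5 to 76.3 and 73.8 CPM, 1.94-fold, and rose (adjusted p = 1.27e-06).

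The accessory subunits held the widest differences. JARID2 and EPOP (here under its earlier symbol E130012A19Rik) join separate forms of PRC2. Jarid2 was counted at 787 and 789 CPM in the day 1 libraries and at 359 and 343 CPM in the day 2 libraries. Jarid2 was 2.28-fold lower and fell by 1.20 ± 0.08 on the log2 scale (SE) over the lines (adjusted p = 1.24e-07), and E130012A19Rik fell from 267 and 269.6 to 112 and 104 CPM. In 3i Jarid2 had 268 and 263 CPM and E130012A19Rik 116 and 115 CPM, both below day 1. Phf19, a PCL subunit, fell from 20.2 and 18.1 to 8.48 and 9.19 CPM, its relative Mtf2 from 332 and 336 to 260.5 and 257, and Aebp2 from 135 and 139 to 94.8 and 101. Together 8 of the 12 PRC2 genes fell (among them Eed, with the limit given above) and 2 rose, with a median of -0.36. Skp1a, the gene named in the series title, had 411 and 399, then 388 and 404 CPM and did not pass (adjusted p = 0.212), but passed upward with library totals (adjusted p = 0.0201). Among 12 SCF genes 5 fell and none rose, with ratios between log2 -0.50 and 0.10. Of 21 genes of PRC1, the second Polycomb complex, 4 rose and 4 fell, beside 28.2% and 27.2% of all genes tested. The largest of these PRC1 changes was in Kdm2b, a subunit that binds unmethylated CpG islands, which fell from 335 and 326 to 186 and 179 CPM.

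Enzymes of DNA methylation and its removal were mostly lower. Tet1 and Tet2, which oxidise 5-methylcytosine, fell from 648 and 631 to 354 and 351 CPM and from 180.1 and 174 to 79.2 and 78.1 CPM. Dnmt3l, the cofactor of de novo methylation, fell from 836 and 824 to 410.2 and 405 CPM; its 2.07-fold difference drops just below 2-fold with library totals (log2 -0.985). The enzyme Dnmt3b was higher in f/f (718 and 727 to 959.7 and 962 CPM) but did not pass over the lines (adjusted p = 0.574). Its log2 ratios in the other 3 lines ran from -0.59 to 0.50. Dnmt3a, Dnmt1 and Uhrf1 fell by less than 1.5-fold. In all 6 of 9 genes fell and none rose.

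D-type cyclins, which link growth signals to the start of the cell cycle, were lower. The day 1 libraries gave Ccnd3 281 and 259.9 CPM, and the day 2 libraries 86.3 and 79.8 CPM. Ccnd3 was 3.31-fold lower and fell over the lines by 1.51 ± 0.08 on the log2 scale (SE; adjusted p = 2.37e-08). Ccnd2 fell from 29.3 and 33.0 to 8.73 and 8.12 CPM and Ccne1, a cyclin of S phase entry, from 273 and 267 to 173 and 160.2 CPM. The proliferation marker Mki67 had 362 and 371, then 407 and 403 CPM (adjusted p = 0.649) and the mitotic cyclin Ccnb1 485 and 499, then 516 and 539.7 CPM (adjusted p = 0.702). Of the 20 genes 13 fell and none rose. Cdkn1a (p21), an inhibitor of cyclin-dependent kinases and a p53 target, rose from 36.4 and 39.8 to 62.3 and 60.1 CPM. Among 17 p53 targets 9 rose and 3 fell, beside 28.2% and 27.2% of all genes tested. Plk2, a polo-like kinase, was the 1 past the size rule, rising from 14.7 and 16.6 to 37.9 and 37.2 CPM, and Trp53inp1, a stress-induced cofactor of p53, rose from 133 and 145 to 277 and 281 CPM.

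Glycolytic and hypoxia-linked genes were higher at day 2 by modest amounts. HIF factors, which accumulate when oxygen is low, act on many of them. For Aldoa, the values were 1688 and 1684 CPM at day 1 and 2787 and 2755 CPM at day 2. Aldoa, the aldolase of glycolysis, was 1.62-fold higher and rose over the lines by 0.80 ± 0.06 on the log2 scale (SE; adjusted p = 2.71e-07). Pgk1, phosphoglycerate kinase, rose from 1056 and 1087 to 1616 and 1619.5 CPM (adjusted p = 1.67e-06), and Pfkl, a phosphofructokinase, from 332 and 333 to 533 and 526. Ddit4, an mTOR inhibitor of the hypoxia response, rose from 186 and 189.6 to 345 and 334 CPM (adjusted p = 6.26e-04), and Bnip3, a mitophagy receptor, from 135 and 135 to 212 and 199. Hk2 (395 and 394 to 242 and 251 CPM) and Pfkp (159 and 163 to 106 and 107 CPM), enzymes of the first steps, fell. Standard hypoxia markers did not all move: Vegfa had 28.3 and 28.5, then 30.8 and 29.6 CPM (adjusted p = 0.112) and Car9 1.30 and 1.24, then 0.897 and 0.534 CPM (adjusted p = 0.26). Of 24 genes 14 rose and 2 fell, none past 2-fold in f/f, and the median was 0.28. The summed level of the list was 14860 and 14810 CPM in the day 1 libraries and 19310 and 19220 CPM in the day 2 libraries, after 19680 CPM in 3i.

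HIF is known to bind the core letters ACGTG in promoters, so the 250 bases before the start of 3 genes that rose are printed, with ACGTG on either strand in capitals (read as CACGT where the match is on the other strand, and as CACGTG in Bnip3, where a match on each strand overlaps). The sequences are those of RefSeq on build GRCm38.p6, which is not the mm9 build of the files, and the 3 genes were chosen after their values were seen. Pgk1 lies at chrX:106186850-106187099 on the plus strand, Bnip3 at chr7:138909507-138909756 on the minus strand and Ddit4 at chr10:59951771-59952020 on the minus strand.
Pgk1: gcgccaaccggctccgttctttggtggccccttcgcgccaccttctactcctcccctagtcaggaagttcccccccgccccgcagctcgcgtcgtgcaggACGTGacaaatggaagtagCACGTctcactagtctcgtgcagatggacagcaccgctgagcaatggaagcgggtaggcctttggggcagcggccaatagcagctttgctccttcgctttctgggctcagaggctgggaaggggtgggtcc
Bnip3: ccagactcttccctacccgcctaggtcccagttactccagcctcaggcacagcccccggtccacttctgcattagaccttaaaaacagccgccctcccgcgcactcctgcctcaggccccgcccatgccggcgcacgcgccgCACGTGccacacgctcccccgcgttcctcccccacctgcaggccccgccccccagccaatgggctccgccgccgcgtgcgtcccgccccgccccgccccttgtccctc
Ddit4: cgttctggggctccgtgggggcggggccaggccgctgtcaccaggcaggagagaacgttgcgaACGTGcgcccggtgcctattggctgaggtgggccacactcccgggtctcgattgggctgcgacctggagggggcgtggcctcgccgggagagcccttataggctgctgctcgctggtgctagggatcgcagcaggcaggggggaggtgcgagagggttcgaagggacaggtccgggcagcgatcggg
These letters occur in 16.6% of the 32851 promoters of that length in the table and at a start of 18.5% of its 27025 genes. Of the 24 list genes 20 were matched to a promoter and 13 of these hold the letters, 8 of the 11 matched genes that rose and 5 of the 9 that did not (Hk2, which fell, and Vegfa, Egln3, Car9 and Ankrd37, which did not pass). A match is a description of the letters, not a site.

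Cholesterol synthesis genes were nearly all slightly higher. SREBP2 drives them together when sterols are low. Insig1 stood at 151 and 136 CPM at day 1 and at 247 and 243 CPM at day 2. Insig1, which holds SREBP in the endoplasmic reticulum, was 1.67-fold higher and rose over the lines by 0.84 ± 0.08 on the log2 scale (SE; adjusted p = 2.40e-06). Dhcr7, an enzyme of the last steps of synthesis, rose from 74.9 and 75.9 to 109.5 and 108 CPM, and Lss, the cyclase that makes lanosterol, from 95.5 and 99.1 to 142 and 134 CPM. Of the 20 genes 15 rose and none fell (median 0.25), and 1 passed 2-fold in f/f.

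Proteasome genes shifted together in the opposite direction. All 25 had ratios below 1 in f/f, 22 fell over the lines, and the median was -0.43, with none past 2-fold. Psmc4, an ATPase of the 19S cap, had the largest shift, from 231 and 231 to 145 and 148 CPM, and fell over the lines by 0.59 ± 0.05 on the log2 scale (SE; adjusted p = 7.85e-07). The summed proteasome level was 6361 and 6337 CPM at day 1 and 4968 and 5014 CPM at day 2, after 4725 CPM in 3i. Chaperones also tended lower, with 9 of 15 falling and 2 rising. Hsph1, an HSP110 chaperone, fell from 352 and 358 to 193 and 184 CPM. Hspa1a went the other way in f/f (7.05 and 8.90 to 16.5 and 17.5 CPM) but did not pass over the lines (adjusted p = 0.118), was under 2-fold without the first day 1 library (log2 0.903) and is nearly identical to Hspa1b. In 16 genes of the ATF4 amino acid response 7 fell and 3 rose, among them Shmt2, an enzyme of one-carbon metabolism, which fell from 245 and 241 to 143 and 149 CPM. Ribosomal protein genes had a median of 0.00 in f/f, 13 above and 13 below 0. Over the lines 17 of 26 rose by small amounts. Their summed level was 36060 and 36080 CPM at day 1 and 37030 and 36900 CPM at day 2.

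Several primitive streak genes were scarce at both days. T (Brachyury) had 0 and 2 reads at day 1 and 7 and 4 at day 2, and Mixl1 3 and 1 and then 7 and 6. Gsc had 0 and 1 and then 5 and 3, and Wnt3 0 and 1 and then 4 and 8. These 4 rose over the lines (adjusted p = 5.41e-04, 9.95e-04, 0.00738 and 4.00e-04) but stayed under 1 CPM in every f/f library, and counts this low give no usable fold. Eomes, a T-box factor of the streak and trophoblast, was present at 16.0 and 15.9, then 13.4 and 12.3 CPM and did not pass (adjusted p = 0.117). Foxh1, a partner of SMAD2 and SMAD3, rose from 41.7 and 48.1 to 60.3 and 60.6 CPM. Over 13 measured genes of the list 6 rose and 3 fell. Only 4 reached 5 CPM at the higher f/f day, and by size none was higher and 1 was lower. The median of 0.41 turned to -0.07 in the first library pair alone.

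In the endoderm list 9 of 20 genes rose and 2 fell (median 0.37). Dab2, an endocytic adaptor of extraembryonic endoderm, was 2.97-fold higher (5.75 and 4.84 to 16.5 and 16.1 CPM) and Lamb1, a laminin chain, rose from 123 and 128 to 209 and 196 CPM. Sparc was counted at 439.8 and 434 CPM in the day 1 libraries and at 180.4 and 182 CPM in the day 2 libraries. Sparc, a matrix protein abundant in parietal endoderm, fell over the lines by 1.20 ± 0.06 on the log2 scale (SE; adjusted p = 1.83e-08). The defining factors did not pass: Gata6 had 5.38 and 4.28, then 4.97 and 4.27 CPM (adjusted p = 0.411) and Sox17 1.21 and 0.788, then 0.979 and 1.18 CPM (adjusted p = 0.141). Of 17 mesoderm genes 5 rose and 3 fell, and only 3 reached 5 CPM at the higher f/f day. Their median was -0.14 in f/f and 0.83, 0.03 and -0.24 in KO, KO+WT and KO+N-KR. In neuroectoderm 5 of 11 rose and 4 fell, and 7 reached 5 CPM. Over all genes tested 28.2% rose and 27.2% fell, and lists this small were not tested against that share. Pax6, an eye and forebrain factor, went from 2.60 and 2.93 to 6.77 and 5.23 CPM and rose over the lines (adjusted p = 0.0112). Its log2 ratio in f/f was 1.10 with all 4 libraries and 0.902, below 2-fold, without the first day 2 library. Sox1, an early neural factor, had 13.2 and 11.2, then 10.4 and 10.9 CPM, lower by 1.17-fold. It fell over the lines (adjusted p = 0.0269), and just missed the threshold with library totals (adjusted p = 0.0503).

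In the trophoblast list 8 of 11 genes had log2 ratios below 0 in f/f (median -0.33), with 2 higher and 3 lower by size. Tfap2c, an AP-2 factor that germ cells and naive cells also use, was 3.85-fold higher (13.3 and 13.4 to 52.4 and 52.6 CPM) and Krt18, a simple epithelial keratin, 2.81-fold higher (25.8 and 25.5 to 72.9 and 74.2 CPM). Cdx2, a defining factor, had 3 and 1 reads at day 1 and 0 and 1 at day 2. Tead4, a partner of YAP, fell from 30.9 and 39.6 to 13.5 and 13.6 CPM. Krt19, another simple epithelial keratin, had 6.68 and 6.20, then 2.53 and 4.17 CPM and did not pass over the lines (adjusted p = 0.417). Ascl2, a bHLH factor of the placenta, fell from 10.4 and 9.80 to 5.06 and 4.49 CPM. Its difference was under 2-fold without the second day 2 library (log2 -0.994), and its 4-line call was lost with library totals (adjusted p = 0.0783). Over the lines 3 of the 11 genes rose and 3 fell, close to the shares of 28.2% and 27.2% over all genes tested. Among 17 germline genes 8 rose and 3 fell; Sycp3, of the meiotic chromosome axis, went from 7.79 and 6.53 to 25.5 and 29.0 CPM, 3.64-fold (adjusted p = 9.85e-09), and Prdm1 (Blimp1) from 16.9 and 21.4 to 33.8 and 33.1 CPM. None of 12 Hox genes tested reached 5 CPM at either f/f day, and 6 rose over the lines. Their median log2 ratio was 0.92 in f/f and 2.44, 0.35 and 0.02 in KO, KO+WT and KO+N-KR. In the 2-cell-like list, families of near-identical copies, none of 8 genes passed the test, and Zscan4c had 8.53 and 12.6, then 11.3 and 13.2 CPM. Imprinted genes rose more often than they fell, 18 against 5 of 31. Meg3, a noncoding RNA of the Dlk1 region, rose from 63.6 and 66.7 to 125 and 131 CPM, and Peg3, a zinc finger gene, fell from 489.9 and 498 to 206 and 215 CPM.

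Genes of epithelial adhesion were unequal. The main cadherin Cdh1 (E-cadherin) was level, at 673 and 685, then 679 and 680.2 CPM (adjusted p = 0.891), while Cdh3 (P-cadherin) rose from 25.4 and 24.3 to 58.4 and 56.6 CPM and the tight junction gene Cldn7 from 15.4 and 18.2 to 42.0 and 45.1 CPM. Zeb1, a repressor of Cdh1, fell from 15.7 and 15.4 to 5.14 and 6.30 CPM. Podxl, an apical surface protein, rose from 81.7 and 88.0 to 134 and 134 CPM. Of the 19 genes 8 rose and 5 fell, beside 28.2% and 27.2% of all genes tested.

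Markers of other cell types were checked in the same libraries. Of 15 feeder fibroblast genes measured, 7 rose and 2 fell over the lines; their summed level, mostly Fn1, was 973.6 and 978.4 CPM at day 1 and 1055 and 1025 CPM at day 2, after 2626 CPM in 3i. The collagen Col1a1 had 18.7 and 16.8 CPM at day 1 and then 13.1 and 10.9 CPM, against 248 and 236 CPM in 3i, and its call over the lines (adjusted p = 0.04995) was lost with library totals (adjusted p = 0.104). Lum had at most 1 read in any f/f embryoid body library. Thy1, a surface protein of fibroblasts and other cells, was the 1 gene past the size rule (5.75 and 5.52 to 13.0 and 13.5 CPM). The 9 parietal endoderm genes summed to 690.2 and 694.2 CPM at day 1 and 558.4 and 539.7 CPM at day 2, with 6 that rose and 1, Sparc, that fell. The 5 endothelium and blood genes measured summed to 101.8 and 96.1 CPM at day 1 and 138.9 and 137.1 CPM at day 2, mostly Pecam1, which stem cells also express (93.4 and 87.5 to 126 and 125 CPM); 2 rose and 1 fell, and the globin Hbb-b1 had 0 reads in all 4 libraries. The 7 neuron genes summed to 274.3 and 270.5 CPM and then 137.0 and 135.1 CPM, mostly Stmn2, a microtubule regulator that was also high in 3i (281 and 291 CPM), with 3 that rose and 2 that fell. The part of other cells in the differences between the days was not tested.

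**Figure D4:**
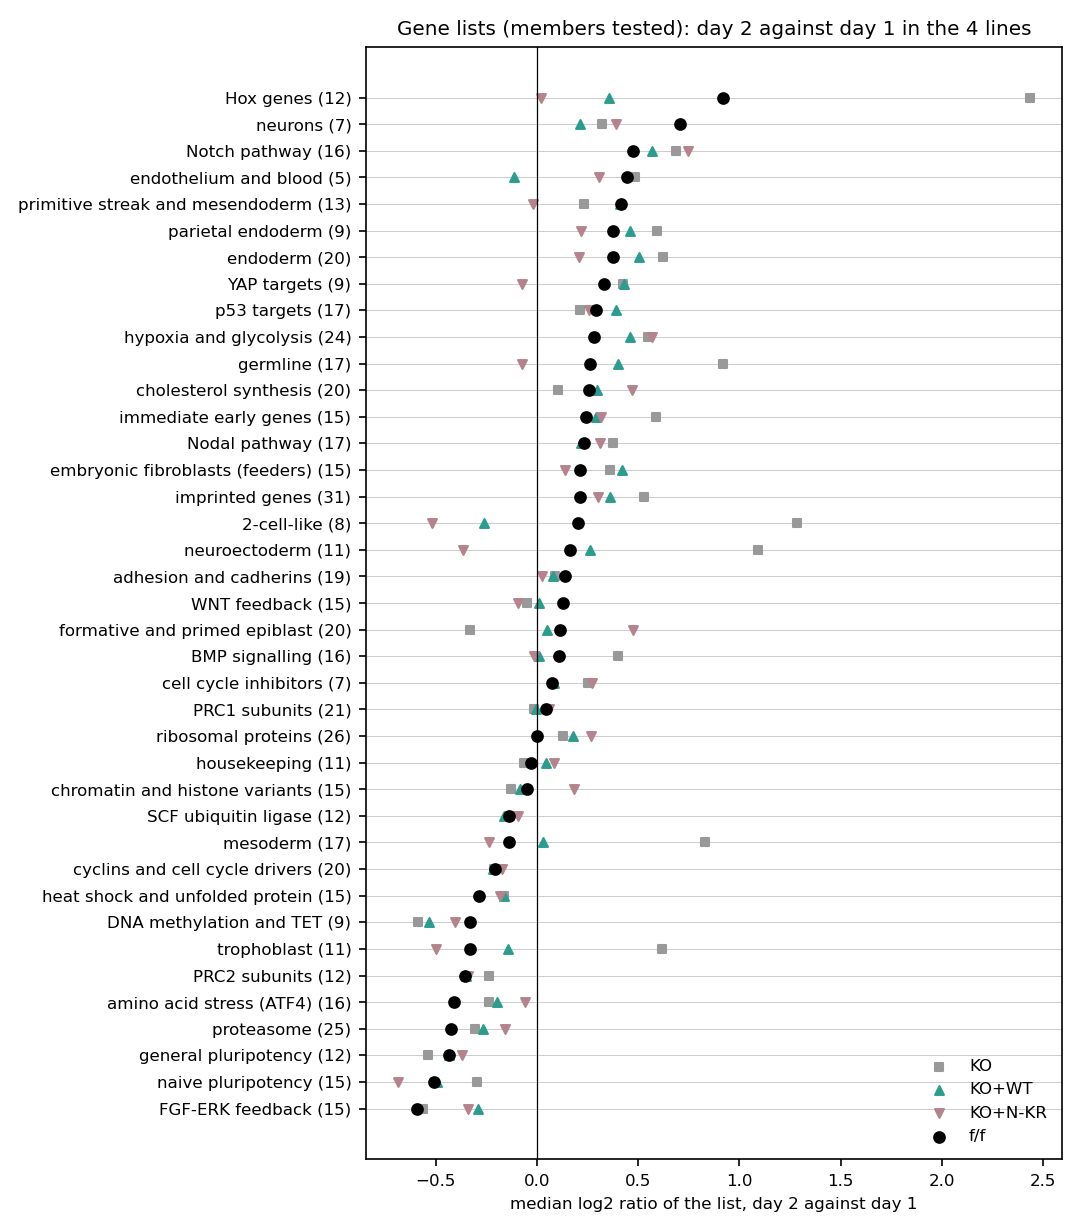
Median log2 ratio of day 2 against day 1 (horizontal) of the members of each of 39 gene lists (vertical, number of members tested in brackets) in f/f (black circles) and in KO, KO+WT and KO+N-KR. In f/f the Hox list has 0.92, from genes below 5 CPM (0.41 in the second library pair alone), and the FGF-ERK list -0.59, and neither place at the ends holds in each library pair; the Notch list lies above 0 and the proteasome and both pluripotency lists lie below 0 in all 4 lines.

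The same day was compared between f/f and the 3 lines treated with tamoxifen. Across the 10544 genes with a mean of at least 5 CPM in f/f, the log2 ratios of f/f correlated with those of KO (Pearson's r = 0.874), KO+WT (0.896) and KO+N-KR (0.884). These are correlations across genes, which are not independent, and the lines share no library. Of the 716 genes past 2-fold in f/f, 706 had the same sign in all 3 other lines and 399 were past 2-fold in all 3. The matching shares over all genes tested were not computed, so these counts do not measure an excess over other genes. The number of genes past 2-fold was 420 higher and 296 lower in f/f, 567 and 235 in KO, 548 and 271 in KO+WT, and 500 and 322 in KO+N-KR; whether these counts differ could not be tested with 1 sample each.

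No gene's day change was shown to differ between f/f and the other lines. The test of that difference (edgeR, 12 summed samples) called 0 of 15558 genes (0%), with a lowest adjusted p of 0.997. DESeq2 also called 0. An unadjusted p under 0.05 was found in 500 of the 15558 genes with edgeR and in 161 with DESeq2. Both counts are below a share of 0.05 of the genes tested. The genes with the lowest unadjusted p among the 716 are given as values, chosen after they were seen. Krt17, a keratin, had 5.66 and 5.52 CPM at day 1 and 2.12 and 1.71 at day 2, a log2 ratio of -1.51 in f/f against -0.07, -0.12 and -0.11 in KO, KO+WT and KO+N-KR. Plk2 had 1.24 against 0.56, 0.41 and 0.29, and Trp73, a p53 relative, 2.03 against 1.12, 1.04 and 0.83. Of the genes described above, Notch3 had 2.12 against 1.76, 1.48 and 1.55, and the difference of 0.54 ± 0.14 on the log2 scale (SE) carried an adjusted p of 0.997. For Lefty1 the difference was 0.35 ± 0.51 on the log2 scale (SE), for Jarid2 0.03 ± 0.17 on the log2 scale (SE) and for Nr0b1 -0.03 ± 0.23 on the log2 scale (SE). The f/f cells alone had no tamoxifen, so its effect cannot be told apart from those of genotype and of how each line was made.

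**Figure D5:**
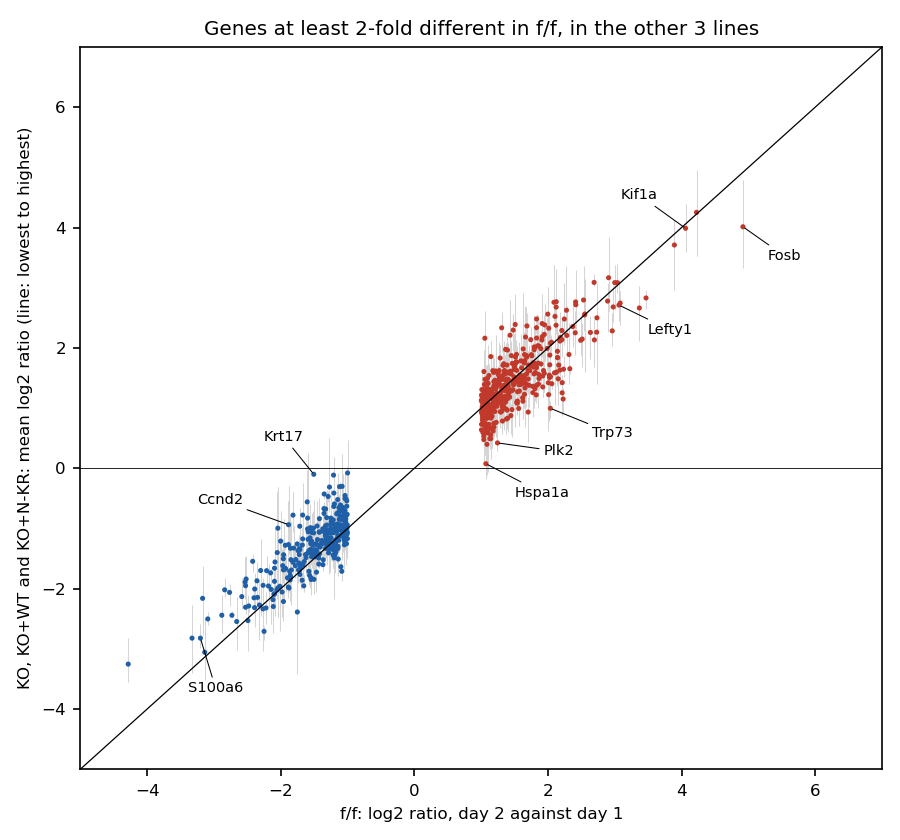
Each of the 716 genes past 2-fold in f/f, with its log2 ratio of day 2 against day 1 in f/f (horizontal) and the mean of its ratios in KO, KO+WT and KO+N-KR (vertical; grey lines run from the lowest to the highest of the 3). Red genes were higher and blue genes lower at day 2 in f/f, which fixes their place on the horizontal axis; most lie near the diagonal of equal ratios, and Krt17 and Hspa1a lie near 0 in the other lines.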

How the data were processed

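RNA-seq of poly(A) RNA (NEBNext Ultra II libraries, per the labels' protocols) was deposited as 1 table of gene counts, whole numbers per gene and library that the authors had not normalized. The submitters' processing notes name the mm9 build, STAR 2.5.2b (an aligner) and DESeq2. What counted the reads, with which annotation and strand setting, is not given in the sources used here. Antisense, overlapping and near-identical genes are therefore uncertain. Libraries were matched to columns by the code in each sample's description, and the titles gave the groups. Of the 30 value columns, 6 matched no library and were not used.

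The 2 libraries of each group were summed. Levels are CPM with TMM scaling, given per library, and log2 ratios use the summed samples with a prior count of 2. A gene was called by size at 2-fold with at least 5 CPM at the higher day. The 4-line fit (edgeR 4.0.16, quasi-likelihood F-test, R 4.3.3) had line and state as terms, over 12 samples with 6 residual degrees of freedom. A second fit tested the day change in f/f against the mean of the other 3 lines, with 4 residual degrees of freedom, and another used all 24 libraries, where p-values measure only the spread between the 2 libraries of a group, which may be technical. p-values were adjusted by Benjamini-Hochberg over all genes tested. The scripts were tested on simulated counts. Alternatives were library totals, DESeq2 1.42.0, other size rules, embryoid body samples alone and leaving out libraries or lines.

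Genes were named by a rule: fixed pathway and marker genes, the 15 highest and 15 lowest ratios among genes of at least 20 CPM that passed the size rule and the 4-line fit, and up to 4 members of each list with the largest ratios at 5 CPM or more. The 15 highest and 15 lowest also had to have the same direction in both library pairs. Other list members, Krt17 and Trp73 were named after their values were seen. Some genes that the rule names are not reported here. The members and gene lists were chosen with earlier results of these data known.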

Additional observations from a re-analysis of the deposited data

How the results depend on the processing

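The size rule set the number of genes called in f/f: 261 were higher at 10 CPM, 964 higher and 458 lower at 1 CPM, and 1021 higher and 915 lower at 1.5-fold. Leaving out libraries gave 427 to 460 higher and 291 to 306 lower. Scaling by library totals moved the median of all genes to 0.07 and the share of higher calls from 58.7% to 65.7%. With it, list medians were -0.291 for PRC2, 0.108 for PRC1, -0.0735 for SCF, -0.143 for cyclins, -0.221 for heat shock and 0.203 for adhesion genes. With only the first or only the second libraries of both days, medians ran from -0.0655 to 0.301 for streak genes, -0.00603 to 0.0902 for PRC1, -0.138 to -0.11 for SCF, -0.501 to -0.306 for FGF-ERK, -0.0655 to 0.151 for WNT, 0.24 to 0.311 for Nodal, -0.185 to -0.172 for cyclins, 0.158 to 0.191 for adhesion, 0.409 to 0.816 for Hox, -0.0456 to 0.458 for neuroectoderm, 0.218 to 0.382 for feeder and 0.431 to 0.534 for neuron genes. The causes were not tested.

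The 4-line counts (4288 rose, 4133 fell) were 4995 and 3385 with library totals, 3844 and 3999 with DESeq2, and 4605 and 4178 without the 3i samples. Among named genes, library totals ended 5 calls (Ascl2, Col1a1, Sox1, Suz12, Tubb3) and added 3 (Cubn, Nodal, Skp1a), and DESeq2 ended 2 (Bmi1, Col1a1). The test of f/f against the other lines called 0 genes under each of its 8 alternatives, with a lowest adjusted p of 0.349 without KO. In that setting 1026 of 15411 genes had an unadjusted p under 0.05, above a share of 0.05.

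In the fit of all 24 libraries, with the replicate number as a block, 4111 genes were higher and 3970 lower in f/f at day 2. Without the block the counts were 4098 and 3953. Replicate numbers did not pair the libraries: the deviations of day 1 and day 2 in f/f correlated at -0.0064, and over 66 pairs of groups the correlation ran from -0.0383 to 0.0399. Counts of a few reads per gene limit the streak and Hox values.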

Other observations

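Targets of YAP, the effector of the Hippo pathway, had no common direction: 3 of 9 rose and 2 fell over the lines. Over all genes tested 28.2% rose and 27.2% fell. Cyr61, a matricellular protein, rose from 9.46 and 9.80 CPM at day 1 to 15.6 and 17.5 CPM at day 2, and Lats2, the Hippo kinase that YAP itself switches on, fell from 6.03 and 6.42 to 4.16 and 3.20 CPM. Among 7 inhibitors of cyclin-dependent kinases 3 rose and none fell, with a median log2 ratio of 0.07 that turned to -0.00308 in the second library pair alone.

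Of 15 chromatin and histone variant genes 3 rose and 4 fell. H1f0, a linker histone of non-dividing cells, fell from 60.2 and 60.7 to 36.5 and 31.3 CPM, and Hmga2, an architectural protein of embryonic cells, from 41.5 and 45.4 to 31.0 and 24.4 CPM. Genes often used as references were not all level. Actb fell from 2896 and 2910.2 to 2034 and 2056 CPM, Gapdh rose from 932 and 919.5 to 1084 and 1046 CPM, and Hprt had 187 and 191, then 185 and 189.6 CPM (adjusted p = 0.472). B2m, the light chain of MHC class I, rose from 5.19 and 6.76 to 13.1 and 12.1 CPM, a log2 ratio of 1.07 that was 0.88 without the first day 1 library. Of the 11 measured, 4 rose and 4 fell.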
